A study of Mus musculus with 8 samples.

Results

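The 10 genes described here belong to the response that the transcription factor ATF4 directs under cellular stress: Atf4, Ddit3, Atf5, Trib3, Chac1, Sesn2, Mthfd2, Psat1, Fgf21 and Gdf15. They were taken by symbol from the 25239 gene symbols counted in each liver, and all 10 were found. The livers came from adult male Smo flox/flox mice (strain Smo tm2Amc/J, C57Bl6/J background) that ate the CDA-HFD, a choline-deficient diet with defined amino acids and 60% of its calories from fat, for 6 weeks. The 4 control mice (labelled Smo-Luc, genotype WT) received AAV8-TBG-Luciferase and 4 Smo-KO mice (labelled Smo-Cre, genotype SMO KO) received AAV8-TBG-Cre Recombinase, each by tail vein 1 week before sacrifice. The TBG promoter is active in hepatocytes, to which it directs Cre. The floxed alleles, the diet and a viral vector were shared by both groups, and neither chow-fed nor uninjected mice were part of the comparison. The methods give an age at injection for mice of this strain in a passage on a chow-fed cohort, and state none separately for the CDA-HFD-fed mice.

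Cells that are short of amino acids, overloaded with unfolded protein in the endoplasmic reticulum or damaged in their mitochondria phosphorylate the translation factor eIF2 alpha. This slows most protein synthesis but favours translation of the Atf4 mRNA, and ATF4 protein then pairs with C/EBP factors on the promoters of genes for amino acid supply, redox balance and cell death. FGF21 and GDF15 are hormones that a stressed liver releases into the blood, where both act on the brain to alter feeding and energy use. The study used GDF15 as a readout of the mitochondrial form of this response. It reported more GDF15 protein in serum and hepatocyte medium from chow-fed Smo-KO mice than from controls. The comparison here addresses the mRNA of Gdf15 and of the wider ATF4 response in whole liver.

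Every one of the 10 genes had a lower mean in Smo-KO than in control livers. The difference was largest for Fgf21, at 35.6% of the control mean, and smallest for Atf4, at 75.0%. Only Atf4 separated the groups completely. Smo-KO mouse 1 ranged from 63.2% (Chac1) to 158% (Trib3) of the control mean, while Smo-KO mice 2 to 4 were below that mean in all 10. The genes were chosen by their lower mean counts in these same Smo-KO livers, so the differences between the groups are given as a description, without a test.

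The promoters of 3 genes hold letters that match the element known to be bound by ATF4 with C/EBP factors, and these 3 are shown for that reason. The promoter windows are those of RefSeq on GRCm38.p6, from 250 bases before to 50 bases after each annotated start. All 10 genes matched, with 13 windows, since Atf5, Psat1 and Gdf15 have more than 1 start. The letters TGATGNAA were searched on both strands. In the sequences below, printed 5′ to 3′ in the direction of the gene, the match is in capitals and reads as its reverse complement.
Fgf21 (chr7:45615441-45615740, minus strand): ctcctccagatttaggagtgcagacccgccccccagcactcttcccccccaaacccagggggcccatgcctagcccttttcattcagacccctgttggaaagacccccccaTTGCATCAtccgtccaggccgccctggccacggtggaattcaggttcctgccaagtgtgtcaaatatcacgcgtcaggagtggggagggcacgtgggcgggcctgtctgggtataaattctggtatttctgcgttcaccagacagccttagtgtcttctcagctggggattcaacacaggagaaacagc
Chac1 (chr2:119350992-119351291, plus strand): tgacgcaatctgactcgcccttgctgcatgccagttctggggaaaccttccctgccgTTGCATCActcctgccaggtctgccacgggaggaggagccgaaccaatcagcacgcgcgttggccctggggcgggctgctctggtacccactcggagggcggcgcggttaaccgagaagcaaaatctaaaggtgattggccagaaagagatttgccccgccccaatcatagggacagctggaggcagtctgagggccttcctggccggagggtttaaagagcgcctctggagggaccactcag
Trib3 (chr2:152344011-152344310, minus strand): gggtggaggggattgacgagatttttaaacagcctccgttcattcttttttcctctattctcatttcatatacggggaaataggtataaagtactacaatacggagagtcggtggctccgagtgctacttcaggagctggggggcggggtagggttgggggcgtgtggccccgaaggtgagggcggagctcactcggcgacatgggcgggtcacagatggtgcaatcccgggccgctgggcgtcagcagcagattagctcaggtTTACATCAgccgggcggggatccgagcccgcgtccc
On the opposite strand the matches of Fgf21 and Chac1 both read TGATGCAA, and that of Trib3 reads TGATGTAA. The match of Fgf21 lies from -139 to -132 relative to the start, that of Chac1 from -193 to -186, and that of Trib3 from 14 to 21, past the RefSeq start. In GENCODE M21 Trib3 begins at chr2:152344032 on the minus strand, so that by this annotation the Trib3 match lies just upstream of the gene. Matches were found in 3 of the 10 genes, against 4.51% of the 27025 genes with a RefSeq promoter. No window of the 10 genes held the cyclic AMP response element TGACGTCA (2.03% of all genes), the DR1 repeat that PPAR alpha recognizes (0.0481%) or the endoplasmic reticulum stress element ERSE (0.137%). The letters TGATGNAA and TGACGTCA are not contained in each other. A match describes the letters in this window only, and elements farther away were not searched.

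Libraries held between 8203299 and 9999732 reads on genes. Read counts were scaled to CPM, the counts relative to library size, with edgeR's TMM factors, and the 10 genes were counted with 33 to 13430 reads per liver, so that all 10 passed the filter on low counts among the 12977 genes tested. In the deepest library 3 reads were worth 0.297 CPM and in the shallowest 0.366 CPM. Smo itself averaged 8.40 ± 0.270 CPM in control and 4.56 ± 0.765 CPM in Smo-KO livers (SD, n = 4 each), with no overlap. Among Smo-KO livers it was highest in mouse 1, at 5.67 CPM, against 3.93, 4.27 and 4.37 CPM in mice 2 to 4. Hepatocyte genes were abundant in both groups, with Alb at 16570 CPM in control and 15338 CPM in Smo-KO livers. Reads came from whole liver, in which fewer cells of a type and less RNA per cell cannot be told apart.

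The comparison across all genes sets the scale. edgeR's quasi-likelihood test called 0 of 12977 genes at an adjusted p under 0.05 (0%), and 1797 (13.8%) had an unadjusted p under 0.05. The lowest adjusted p in edgeR was 0.0785. With DESeq2, 167 genes passed (1.29%). A log2 fold change below 0 was found for 50.1% of the genes tested, one below -0.5 for 3%, and all Smo-KO values below all control values for 4.34%. All Smo-KO values lay above all control values in 3.03%. Of the 10 ATF4 response genes, 10 were below 0, 6 were below -0.5 and 1 had groups that did not overlap. Their median log2 fold change was -0.54, beside 0.00 over all genes tested. These counts describe genes that were picked with the contrast in view.

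Atf4 encodes the bZIP factor at the centre of the response, whose protein level is set largely by translation. It lies on chr15:80255184-80257541 (GRCm38, plus strand). Values follow the order of mice 1 to 4 throughout. Control livers held 243, 189, 240 and 188 CPM, and Smo-KO livers held 180, 147, 163 and 156 CPM. Every Smo-KO liver was below every control liver, with a narrow gap between Smo-KO mouse 1 and control mouse 4. Means were 215 ± 30.9 CPM and 161 ± 14.2 CPM (SD, n = 4 in both groups). On the log2 scale the difference was -0.42 (standard error 0.11).

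Ddit3 encodes CHOP, the bZIP factor through which prolonged stress promotes cell death. It measured 55.5, 39.2, 41.3 and 39.7 CPM in control mice and 44.1, 26.8, 23.0 and 27.8 CPM in Smo-KO mice. Smo-KO mice 2 to 4 lay below all controls, whereas Smo-KO mouse 1 lay above 3 of them. Ddit3 had a log2 fold change of -0.52 (standard error 0.18). Exons of Ddit3 overlap those of Mars (listed as Mars1 in the counts) and Gm4189 on the opposite strand, and whether reads were counted by strand is not given in the sources used here.

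Atf5 encodes a related bZIP factor, also under translational control, that is abundant in liver and guards mitochondrial protein balance. It was by far the most abundant of the 10 mRNAs, with 1238, 846, 1335 and 1114 CPM in control mice and 1231, 606, 411 and 847 CPM in Smo-KO mice. Smo-KO mouse 1 was within the control range, Smo-KO mouse 4 was next to control mouse 2, and Smo-KO mice 2 and 3 were lower than any control. Atf5 had a log2 fold change of -0.55 (standard error 0.26), which was -0.86 without Smo-KO mouse 1 and -0.34 without Smo-KO mouse 3. Its exons overlap those of Nup62 and Il4i1 on the opposite strand.

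Trib3 encodes a pseudokinase that is induced by ATF4 and CHOP and restrains both, as well as the insulin-signaling kinase AKT. It measured 118, 49.5, 67.2 and 106 CPM in control mice. Smo-KO mouse 1 had the highest level of all 8 livers, 134 CPM, and Smo-KO mice 2 to 4 had the lowest, 36.6, 25.1 and 47.5 CPM. Its log2 fold change of -0.48 had a standard error of 0.42. Without Smo-KO mouse 1 it was -1.22, and the mean of Smo-KO mice 2 to 4 was 42.8% of the control mean. It was -0.28 without control mouse 1, -0.30 without Smo-KO mouse 2 and -0.22 without Smo-KO mouse 3.

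Chac1 encodes an enzyme that degrades glutathione, and its mRNA was scarce, with 33 to 89 reads per liver. Control mice 1 to 4 had 9.87, 5.77, 8.84 and 3.56 CPM and Smo-KO mice had 4.43, 4.14, 4.02 and 4.80 CPM. The Smo-KO values were close together and within the control range, since control mouse 4 was lower than all of them. Chac1 had a log2 fold change of -0.68 (standard error 0.27), and Chac1 was the only one of the 10 genes in which Smo-KO mouse 1 was not the highest Smo-KO liver.

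Sesn2 encodes a leucine sensor that holds back the growth kinase mTORC1. It measured 24.2, 19.7, 15.4 and 18.7 CPM in control and 19.4, 16.6, 11.3 and 10.1 CPM in Smo-KO mice. Smo-KO mice 3 and 4 lay below the controls and Smo-KO mice 1 and 2 within their range. For Sesn2 the log2 fold change was -0.43 (standard error 0.20).

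Mthfd2 and Psat1 supply the metabolic arm. Mthfd2 encodes a mitochondrial enzyme of folate metabolism and measured 10.8, 10.4, 20.3 and 14.0 CPM in control and 10.4, 6.87, 6.10 and 8.74 CPM in Smo-KO mice. Smo-KO mouse 1 equalled the lowest controls and the other Smo-KO mice were below them, with a log2 fold change of -0.78 (standard error 0.23). Psat1 encodes an aminotransferase of serine synthesis. It measured 6.69, 6.50, 17.1 and 13.4 CPM in control livers and 13.2, 6.22, 6.10 and 6.72 CPM in Smo-KO livers. Control mice 1 and 2 were as low as Smo-KO mice 2 to 4, so the groups overlapped widely. Its log2 fold change was -0.44 (standard error 0.33), and it was -0.13 without control mouse 3 and -0.78 without Smo-KO mouse 1.

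Fgf21 lies on chr7:45613886-45615490 (GRCm38, minus strand) and its single annotated transcript has 3 exons. It measured 116, 31.6, 99.97 and 49.3 CPM in control mice and 64.4, 13.3, 15.7 and 12.0 CPM in Smo-KO mice. Smo-KO mice 2 to 4 were less than any control, at 18.5% of the control mean, while Smo-KO mouse 1 exceeded control mice 2 and 4. Control mice themselves differed up to 3.66-fold. Fgf21 had a log2 fold change of -1.48 (standard error 0.52), which became -2.43 when Smo-KO mouse 1 was left out and -1.18 when control mouse 1 was left out.

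Gdf15 lies on chr8:70629393-70632456 (GRCm38, minus strand). It measured 142, 129, 60.8 and 54.7 CPM in control mice and 75.9, 57.2, 58.9 and 34.6 CPM in Smo-KO mice. Control mice 1 and 2 stood above all other livers, control mice 3 and 4 were level with Smo-KO mice 2 and 3, and Smo-KO mouse 4 was the lowest. For Gdf15 the log2 fold change was -0.77 (standard error 0.30). The paper's higher GDF15 in Smo-KO mice was protein, in other samples and on chow, so it is an unlike measure with the opposite direction.

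**Figure D1:**
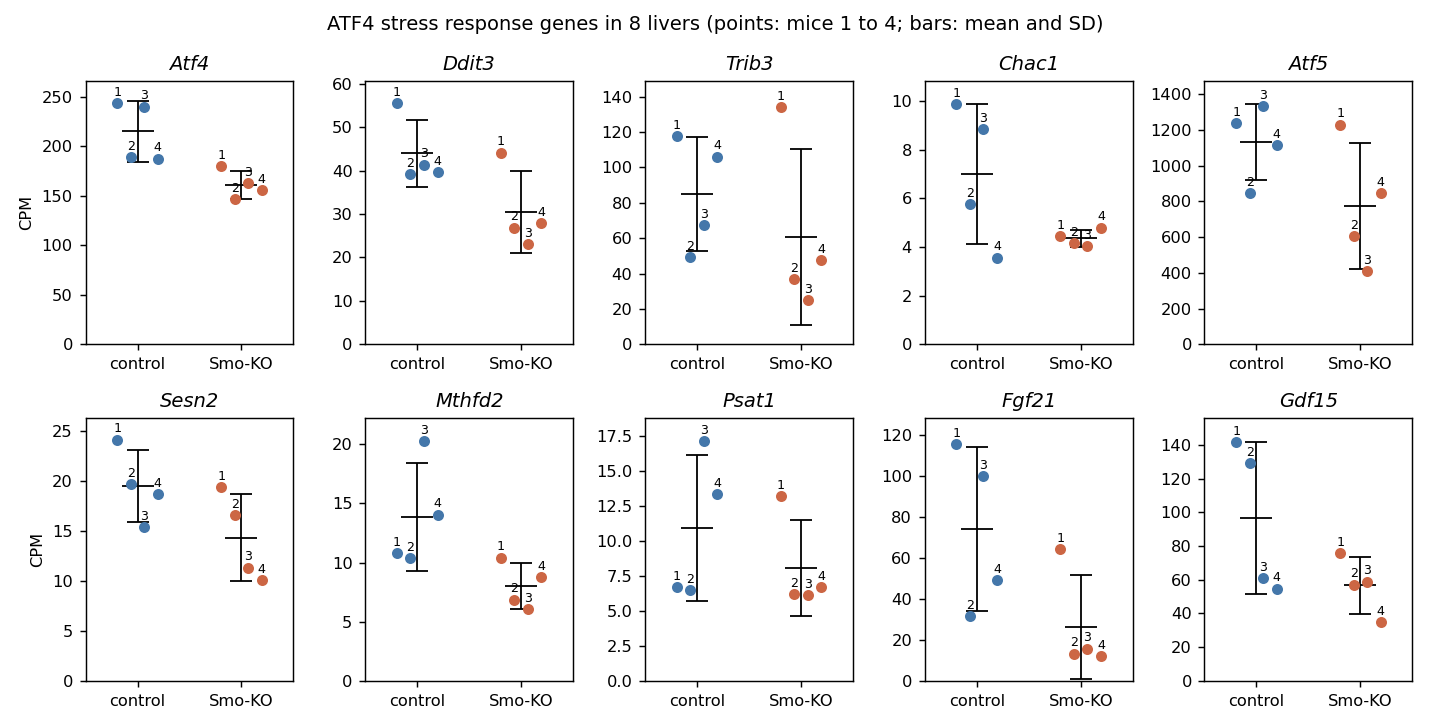
Level of each gene in CPM (vertical axes, each from 0) in 4 control and 4 Smo-KO livers, with points numbered by mouse and bars for mean and SD. Smo-KO mouse 1 is the highest Smo-KO point in 9 of the 10 panels, and Atf4 is the only panel in which the groups do not overlap.

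Divided by the summed exon length of each gene's longest GENCODE M21 transcript, levels could be compared between genes. In control livers Atf5 was highest at 624 ± 117 CPM per kb (SD, n = 4), above all others. Atf4 (107 ± 15.3), Fgf21 (77.9 ± 42.1), Gdf15 (62.6 ± 29.3), Ddit3 (45.3 ± 8.0) and Trib3 (42.0 ± 15.9 CPM per kb) followed. Among these, neighbours in the order had overlapping spreads (mean ± SD). Mthfd2, Sesn2, Chac1 and Psat1 were between 4.17 and 6.65 CPM per kb, again with overlapping spreads. Fgf21 took the third place in control and the sixth in Smo-KO livers, at 27.7 ± 26.7 CPM per kb in the latter. The order depends on the transcript chosen. With the shortest one, Trib3 (169 CPM per kb in control) came before Fgf21 (77.9), and Mthfd2 (38.7) and Psat1 (24.9) left the lowest group.

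Set against the control mean on the log2 scale, the 10 genes averaged -0.01 in Smo-KO mouse 1 and -0.86, -1.02 and -0.85 in Smo-KO mice 2 to 4. The control mice ranged from -0.30 to 0.28. In Smo-KO mice 2, 3 and 4 all 10 genes were below the control mean, and in Smo-KO mouse 1 it was 5 of 10 on this scale. Smo-KO mouse 1 was the highest Smo-KO liver in 9 of the 10 genes, a position it held in 28.1% of all genes tested and in 37.2% of those with a log2 fold change below 0. In 5 genes, namely Atf4, Ddit3, Trib3, Mthfd2 and Fgf21, Smo-KO mice 2 to 4 were all below every control. This count sets Smo-KO mouse 1 aside after its values were seen. Its share over all genes tested was not computed, so it describes these genes only.

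**Figure D2:**
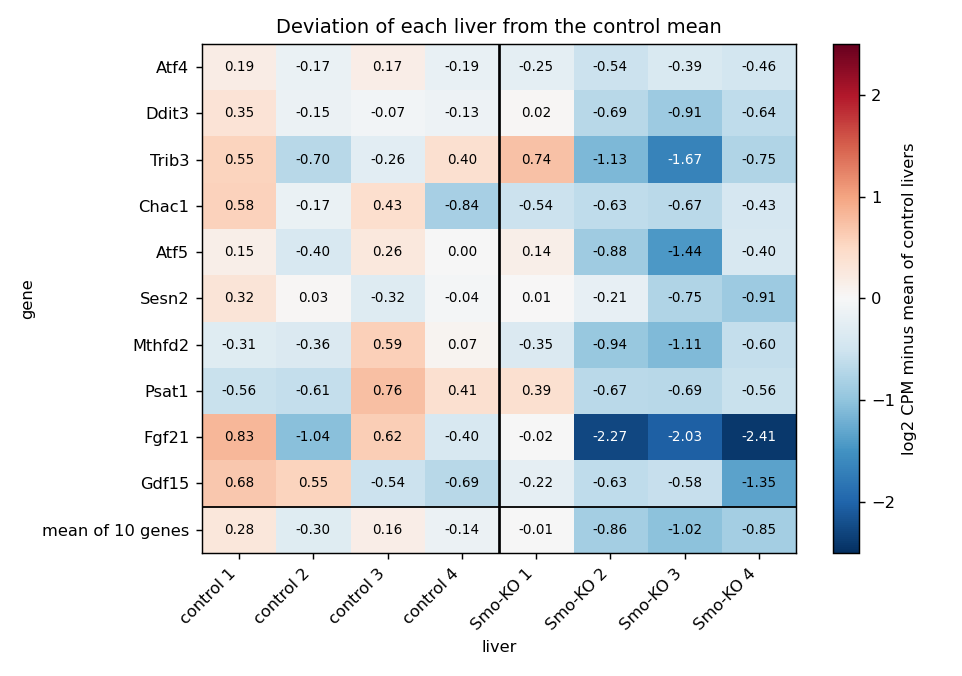
Log2 CPM of each gene (rows) in each liver (columns) minus the mean of the control livers, with blue for lower and red for higher. The last 3 columns are blue throughout, and the column of Smo-KO mouse 1 averages -0.01.

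The fold changes of the 10 genes kept their sign when any 1 mouse was left out. Since the genes were chosen for lower means in these same livers, a kept sign is no independent support. Leaving out Smo-KO mouse 1 moved their median from -0.54 to -0.82. Over the 8 ways of leaving out 1 mouse, the median ran from -0.82 to -0.42.

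**Figure D3:**
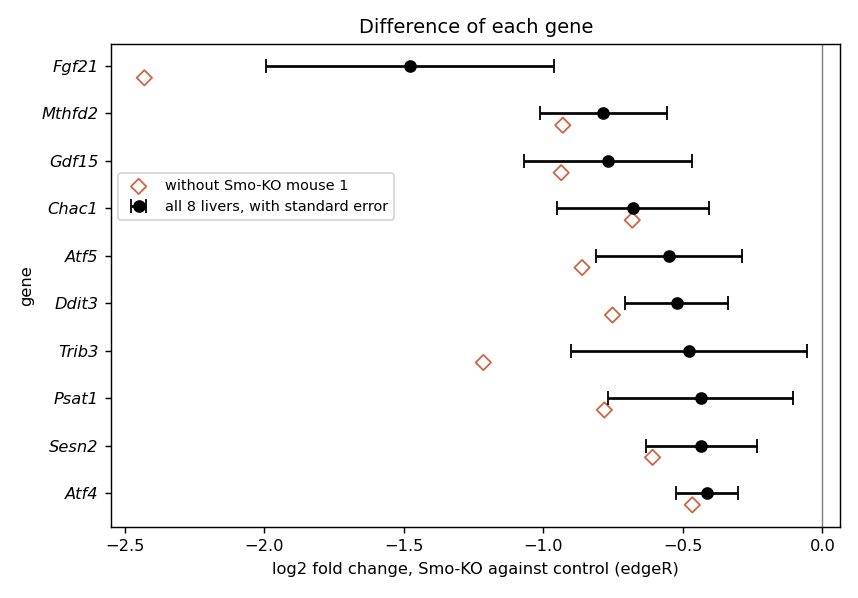
Log2 fold change of each gene between Smo-KO and control livers (horizontal axis; black points with standard errors from edgeR) and the value without Smo-KO mouse 1 (open diamonds). Without that mouse Fgf21 is at -2.43 and Trib3 at -1.22.

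After the group means were subtracted, 40 of the 45 pairs of the 10 genes had a positive Pearson correlation over the 8 livers, with a median of 0.46. This is 88.9% of the pairs, beside 49.9% over all pairs of genes tested. Without Smo-KO mouse 1, 34 of the 45 pairs were positive and the median was 0.24. These are descriptions without a test, because all genes share the same 8 libraries. Mthfd2 and Psat1 were the closest pair (0.92), followed by Ddit3 and Trib3 (0.91). Fgf21 had the highest average correlation with the other genes (0.62), with 0.86 for Atf4 and 0.84 for Ddit3. Gdf15 had the lowest average (0.14), with 0.72 for Sesn2 but -0.52 for Mthfd2. Among controls, mice 1 and 2 were high in Gdf15 and mice 3 and 4 in Mthfd2 and Psat1, whereas Smo-KO mouse 1 was the highest Smo-KO liver in all 3 genes.

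The genes outside the 10 whose level across the 8 livers was most like that of Fgf21, among 12930 compared, were Gps1, Map7 and Lrp10 (Pearson r of log2 CPM 0.97, 0.96 and 0.96). For Gdf15 they included Ipo13 and Eif2ak3, which encodes the eIF2 alpha kinase PERK (0.96 each). For Atf4 they were Ocstamp, Ctbp1 and Pgap3 (0.97 each). The 3 genes near Fgf21 had log2 fold changes from -0.24 to -0.23, against -1.48 for Fgf21 itself. All of these genes were picked as the highest of 12930 correlations over only 8 livers. Their r values also include the difference between the groups, so they are a description without a test.

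Related genes outside the 10 were described in 11 lists of 115 genes, all of which were found and 109 of which were tested. Of the 109, 77 were lower in Smo-KO livers. Of the 109, 30 (27.5%) were lower at an unadjusted p under 0.05, where 7.15% of all genes tested were lower at that p. There were 6 higher at that p (5.5%, against 6.7% of all genes). By edgeR, 0 of them passed after adjustment over all genes. DESeq2 called 5 lower and 3 higher, against 0.655% and 0.632% of all genes. The median log2 fold change over the 109 was -0.17. T and NK lymphocyte markers were lower in the same Smo-KO livers (4 of 4 tested). Their summed level was 42.4, 46.6, 35.7 and 50.1 CPM in control and 20.1, 15.3, 26.8 and 26.9 CPM in Smo-KO mice (exact permutation test, two-sided p = 0.0286, the smallest possible). This p is not adjusted for the other marker sums and library values compared by the same test. Gzma, which is in the sum, had at most 6 reads per liver and was too scarce to test. The most abundant T and NK marker, Nkg7, was at 14.5 and 7.59 CPM, and the part of these markers in the results was not tested.

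The 12 listed aminoacyl-tRNA synthetases, which charge tRNAs and include many ATF4 targets, were all lower, with a median log2 fold change of -0.25. Of all genes tested, 50.1% were lower. At an unadjusted p under 0.05 in edgeR, 8 of the 12 were lower, against 7.15% of all genes. Synthetases outside this list were not examined. Tars measured 90.6 ± 17.0 CPM in control and 66.8 ± 6.41 CPM in Smo-KO livers (SD, n = 4 each), with no overlap and a log2 fold change of -0.44 (edgeR adjusted p 0.181). Wars (log2 fold change -0.32) and Aars (-0.37) also separated the groups. The count of 8 fell to 5 without control mouse 3, Smo-KO mouse 2 or Smo-KO mouse 3, and it was 10 without Smo-KO mouse 1.

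Endoplasmic reticulum chaperones and other XBP1 or ATF6 targets, which answer unfolded protein through the other arms of that response, were lower in 13 of 14 genes. Their median log2 fold change was -0.34, and 11 had an unadjusted p under 0.05. Hspa5, which encodes the chaperone BiP, measured 1011, 1203, 1344 and 941 CPM in control and 796, 849, 613 and 853 CPM in Smo-KO mice, with no overlap. Its log2 fold change was -0.53, with an adjusted p of 0.151 in edgeR and 0.0232 in DESeq2. For Hyou1 the log2 fold change was -0.67 (0.133 and 0.00820 as adjusted p in edgeR and DESeq2), and for Sdf2l1 it was -0.49. In these 3 genes Smo-KO mouse 1 lay below all controls, and without it 9 of the genes had an unadjusted p under 0.05. Xbp1 itself was the 1 gene with a higher mean, at a log2 fold change of 0.21.

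Amino acid supply was mixed. Among 9 transporters, 6 were lower and 3 higher. Slc1a4, a carrier of neutral amino acids, measured 43.0 ± 9.77 CPM in control and 26.3 ± 5.45 CPM in Smo-KO livers (log2 fold change -0.71, adjusted p 0.151 in edgeR and 0.0237 in DESeq2). Slc7a1, a carrier of cationic amino acids, had a log2 fold change of -0.81 with no overlap, while Slc43a1 had 0.54. Among 9 tested enzymes of serine, glycine, proline and related synthesis, 6 were lower and the median log2 fold change was -0.28. That median was -0.11 without control mouse 3, -0.18 without Smo-KO mouse 2 and -0.14 without Smo-KO mouse 3. The smallest p-values belonged to Gpt2 (-0.35), Cth (-0.39) and Phgdh (-0.41). Asns, the asparagine synthetase often used as an ATF4 target, had a log2 fold change of 0.07, and it is named here after its value was seen. Aldh1l2 did not pass the filter.

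Upstream, the 16 genes for eIF2 alpha kinases, phosphatases, eIF2 and eIF2B had a median log2 fold change of -0.06. There were 3 lower at an unadjusted p under 0.05 and 0 higher, and 1 lower without Smo-KO mouse 3. Eif2ak3 measured 70.2, 62.3, 51.9 and 44.4 CPM in control and 47.9, 44.0, 42.1 and 31.0 CPM in Smo-KO mice (log2 fold change -0.47, edgeR adjusted p 0.236). Dnajc3, which encodes an inhibitor of PERK, separated the groups at -0.28, and Eif2ak1, the kinase that relays mitochondrial stress, had -0.23. Among 8 bZIP and related partners the median was -0.06. Batf2 (-1.07, adjusted p 0.116 in edgeR and 0.00532 in DESeq2) and Jun (-0.64) were lower at an unadjusted p under 0.05, and Atf3, a stress-induced repressor, had -0.21. The count of 2 was 1 without control mouse 2, in which Jun was highest at 247 CPM, and 1 without Smo-KO mouse 4.

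Of 11 further ATF4 and CHOP targets tested, 7 were lower, with a median of -0.19. Ddit4, an inhibitor of mTORC1, measured 32.2, 23.0, 23.8 and 21.3 CPM in control and 15.9, 9.38, 4.02 and 6.72 CPM in Smo-KO mice. The groups did not overlap, and the log2 fold change was -1.46 (standard error 0.29, adjusted p 0.116 in edgeR and 0.0387 in DESeq2). Map1lc3b, an autophagosome protein, was higher in every Smo-KO liver (0.20), and Bbc3, a mediator of apoptosis, had -0.33. Stc2, Adm2 and Cdsn were too scarce to test.

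Mitochondrial chaperones and proteases had a median log2 fold change of -0.04 over 9 genes. Hspe1 was higher at 0.28 (edgeR adjusted p 0.243), and Hspa9 (-0.17) and Trap1 (-0.09) came next by p. The list of p53, the DNA damage response factor, and its targets had a median of 0.00 over 8 genes, with 5 higher and 3 lower. At an unadjusted p under 0.05 edgeR found 0 in either direction, and DESeq2 called 0 after adjustment. The count lower was 1 with no filter, with the replicate block, and without control mouse 4, Smo-KO mouse 1 or Smo-KO mouse 2, and the count higher was 1 without control mouse 4. Btg2 had a log2 fold change of -0.42, Sesn1 of 0.11 and Trp53 of -0.07. The part of p53 in the levels of the 10 genes was not tested.

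Other factors known to act on Fgf21 transcription went both ways, with a median of 0.03 over 8 genes. Mlxipl, which encodes the glucose-sensing factor ChREBP, measured 206, 183, 105 and 141 CPM in control and 238, 233, 235 and 245 CPM in Smo-KO mice. Its log2 fold change was 0.58 (adjusted p 0.175 in edgeR and 0.0387 in DESeq2), and it was higher in every Smo-KO than in every control liver. Creb3l3, which encodes the hepatic factor CREBH, was likewise higher without overlap at 0.36 (0.163 and 0.0313). Nr1d1, a clock repressor, had -0.71. Of the receptor genes, Gfral, the GDF15 receptor of the hindbrain, had 0 reads in all 8 livers, and Ret had at most 2. Fgfr1 measured 8.75 ± 1.46 CPM in control and 14.3 ± 1.59 CPM in Smo-KO livers, with no overlap and a log2 fold change of 0.71 (0.116 and 0.0119). The co-receptor of FGF21, Klb, had -0.48 and Fgfr4 -0.24.

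**Figure D4:**
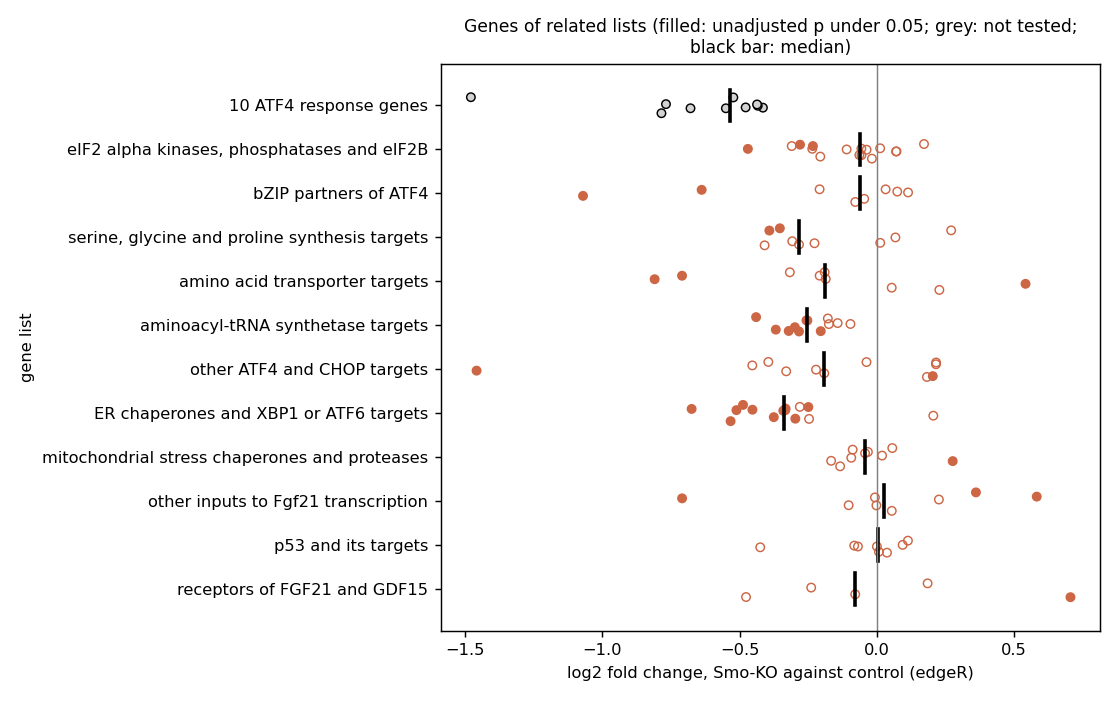
Log2 fold change of each tested gene (horizontal axis) by list (vertical axis), with black bars for medians and filled points for an unadjusted p under 0.05 in edgeR. The lists of endoplasmic reticulum chaperones (median -0.34) and aminoacyl-tRNA synthetases (median -0.25) hold most of the filled points, and the 10 ATF4 response genes are drawn in grey without a test.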

How the data were processed

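The 8 livers were analysed from the read counts per gene symbol that the authors deposited, without normalization. The submitters' processing notes name fastp, STAR 2.7.5, featureCounts 2.0.1 and GRCm38. The annotation and strand setting are not given in the sources used here, and each list ends with entries in the form htseq-count writes. These entries, 8.33% ± 0.743 of reads on no feature in control and 9.23% ± 0.330 in Smo-KO livers and about 2.5% on more than 1 gene, were left out. No symbol beginning with mt- was listed, so mitochondrially encoded RNA was not analysed here.

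Tests used edgeR 4.0.16 under R 4.3.3, with filterByExpr, TMM factors, glmQLFit and glmQLFTest. The model held genotype alone, and p-values were adjusted by Benjamini-Hochberg across the 12977 genes. Standard errors are those implied by the F statistic. Log2 CPM used a prior count of 2. DESeq2 1.42.0 was an alternative. Single values were compared by exact permutation over 70 assignments. Alternatives were other size factors, filters and prior counts, the replicate number as a block, and each mouse left out. The scripts were tested on simulated counts. No pair of libraries of 1 group was a copy (chi-square per degree of freedom from 8.14 to 18.4). Whether the mice are litter mates is not given in the sources used here. The p-values take the 8 mice as independent and set group differences against the spread among these livers.

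The genes, lists and tests were chosen with earlier results of these data known. Genes named are the 10, Smo, the 3 per list with the smallest p, and the 3 most like Fgf21, Gdf15 and Atf4 among genes of at least 1 CPM, of which 1 is not reported here. Xbp1, Asns, Stc2, Adm2, Cdsn, Aldh1l2, Gfral, Ret and single markers are named outside this rule. List symbols missing from the counts were matched through RefSeq synonyms (Mars to Mars1). Gene positions and lengths are from GENCODE M21.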

Additional observations from a re-analysis of the deposited data

Results flagged for a closer look

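In 61 measures, each examined in both groups of 4 livers, 8 of 122 groups held a mouse far from the other 3 (Dixon's test at 95%), where chance gives about 6.1. Smo-KO mouse 1 was apart in Fgf21 (64.4 CPM, against 12.0 to 15.7 in the others), in Psat1 (13.2 CPM, against 6.10 to 6.72) and in the summed macrophage markers (1343 CPM, against 1121 to 1157). Control mouse 1 was apart in Ddit3 (55.5 CPM, against 39.2 to 41.3), in Aars (426.0 CPM, against 353.5 to 354.3) and in the share of reads on the 10 most counted genes (7.95%, against 7.55% to 7.61%). Reads on genes were fewest in Smo-KO mouse 3 (8203299, against 9367795 to 9543675), which also had the lowest summed pancreatic acinar markers (21.5 CPM, against 30.3 to 32.0). Within the macrophage sum, Smo-KO mouse 1 was highest of the Smo-KO livers in Clec4f (452 CPM, against 251.2 to 339.9) and Csf1r (238 CPM, against 175 to 194), but not in Lyz2 (492 CPM, against 453 to 556). The acinar sum is nearly all Cela1, with Cpa1 at 0 reads in all livers.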

How the results depend on the processing

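All 10 genes stayed lower in Smo-KO livers in each of the 7 alternative fits and in each of the 8 fits without 1 mouse. These fits reuse the livers in which the genes were chosen as lower, so they are a description. Leaving out 1 mouse moved the fold changes of Trib3, Atf5, Psat1 and Fgf21 by over 1.5 times, as given with each gene. Genes passing an adjusted p of 0.05 numbered 0 with edgeR's quasi-likelihood test, 61 with no filter and 167 with DESeq2. Leaving out single mice gave 0 to 78 genes, with 78 without Smo-KO mouse 1, 5 without control mouse 1 and 4 without Smo-KO mouse 3. Related genes lower at an unadjusted p under 0.05 ranged from 23 to 44 of the lists and those higher from 4 to 9 when one mouse was left out. The median of the p53 list, near 0, turned to -0.0028 with library size only and ranged from -0.045 to 0.052 without single mice (-0.039 without control mouse 1, -0.019 without control mouse 4, -0.045 without Smo-KO mouse 1, -0.036 without Smo-KO mouse 3). The median of the bZIP list ranged from -0.19 (without Smo-KO mouse 1) to -0.02 (without Smo-KO mouse 3), and that of the further ATF4 and CHOP targets was -0.11 with no filter and with at least 10 counts in every liver. The median of the mitochondrial list ranged from -0.09 (without Smo-KO mouse 1) to -0.03 (without Smo-KO mouse 3). That of the other inputs to Fgf21 ranged from -0.024 (without Smo-KO mouse 2) to 0.078. In the smaller lists, counts at an unadjusted p under 0.05 mostly moved by 1 or 2 genes when a mouse was left out. The largest such move was in the further ATF4 and CHOP targets, from 1 to 5 lower without Smo-KO mouse 1. The cause of these changes was not tested. The median over all genes moved by less than 0.1 under each scaling.

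Mice of both groups share only replicate numbers. Deviations from the group means correlated at 0.10, 0.19, 0.061 and 0.11 between same-numbered mice. Between mice of different numbers the correlations ran from -0.21 to 0.16. The sources used here do not say that the numbers pair the mice, so the main fit held no block, and whether they do is not settled. With the replicate block in edgeR, 8 genes had an adjusted p under 0.05. Standard errors with and without the block were 0.25 and 0.52 for Fgf21 and 0.16 and 0.30 for Gdf15. Those of Mthfd2 (0.23) and Psat1 (0.33) stayed about the same. Levels per length of 6 genes moved by more than their spread with the shortest transcript in place of the longest, which leaves fold changes as they are. The correlations without Smo-KO mouse 1 were added after seeing the data. Chac1, with 33 to 89 reads per liver, is the gene whose counting error weighs most.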

Other observations

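Genes of other liver cell types and of neighbouring organs were measured beside the ATF4 response. Summed macrophage markers were 1108 ± 89.3 CPM in control and 1187 ± 105 CPM in Smo-KO livers, means ± SD over 4 mice per group (two-sided exact permutation test, p = 0.314). Within that list Lyz2 was higher in every Smo-KO than in every control liver (412 and 513 CPM on average, log2 fold change 0.31). Endothelial markers were 139 ± 11.4 and 117 ± 35.0 CPM (exact p = 0.343), stellate and fibroblast markers 619 ± 40.3 and 599 ± 86.9 CPM (exact p = 0.771), and cholangiocyte markers 21.9 ± 3.44 and 22.8 ± 5.01 CPM (exact p = 0.800). B cell markers were 5.67 ± 0.681 and 5.46 ± 0.940 CPM and neutrophil markers 10.1 ± 3.53 and 9.53 ± 1.49 CPM, with Ly6g at 0 reads in all livers. Hepatocyte markers were 26125 and 24945 CPM on average (exact p = 0.400), and within that list Cps1 was lower in every Smo-KO than in every control liver (log2 fold change -0.33). Both genes were named after their values were seen.

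The exocrine pancreas also makes Fgf21. Of the acinar markers, Cpa1 had 0 reads in all livers, and the summed level of the list was 29.6 ± 4.74 CPM in control and 28.8 ± 4.94 CPM in Smo-KO livers (exact p = 0.743), almost all of it from Cela1. Of the adipocyte genes, Lep had 0 reads in all livers, and Adipoq and Plin1 had at most 1 read per liver. The adipocyte sum (42.8 ± 14.6 and 63.4 ± 23.1 CPM, exact p = 0.229) came almost entirely from Cidec, which steatotic hepatocytes also express. Skeletal muscle markers were at 2.56 ± 1.29 and 1.66 ± 0.592 CPM, with Myh4 at 0 reads. Erythroid markers were at 111 ± 16.7 and 107 ± 16.6 CPM, all from Alas2, and the globin genes of the list were at 0 reads.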
